A study of Arabidopsis thaliana with 3 samples.

Results

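*SWEET8* (AT5G40260) and *SWEET9* (AT2G39060) are sugar exporter genes, the first of the tapetum and pollen wall and the second of the nectary. These 2 genes were taken by name from the 5415 *Arabidopsis thaliana* genes that had at least 1 array probe listing no other gene, and each had 1 such probe. Of these genes, 5413 had a value at every stage. They were selected on the log2 ratios of ABAP1OE over WT in this series, which are therefore given as a description and no test is made on them. ABAP1OE plants, which carry the ABAP1 coding sequence under the constitutive 35S CaMV promoter in the Col-0 ecotype, were compared with wild-type Col-0 plants (WT) at 3 stages of flower development, on pools of tissue from each genotype. Flower buds stood at stage 13, open flowers at 14, and siliques at 15 to 16. ABAP1 is a negative regulator of DNA replication and transcription, and the transgene is not limited to any cell type. No homozygous overexpressor could be recovered by the study. Both genotypes were hybridised to the same 2-colour arrays of long oligonucleotides, with each genotype labelled with both dyes.

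SWEET proteins are carriers of the plasma membrane or the vacuole that let sugars pass down their gradient, and much of the sugar that leaves a plant cell leaves through them. *SWEET8*, also known as *RPG1* (RUPTURED POLLEN GRAIN1), is active in the tapetum and the young microspores, where its loss disturbs the patterning of the pollen wall. *SWEET9* is active in the parenchyma of the floral nectaries, exports sucrose, and is needed for nectar secretion. The family falls into 4 clades. Members of clades I and II, which include *SWEET8*, mostly carry hexoses, those of clade III, which include *SWEET9*, mostly carry sucrose, and those of clade IV sit in the vacuolar membrane and carry fructose among other sugars.

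The values were log2 ratios of ABAP1OE over WT, so that -1 is a 2-fold lower and 1 a 2-fold higher level in ABAP1OE. The authors had combined 3 biological replicates of each stage into 1 ratio per probe. Each stage is therefore 1 value per probe, with no error across plants, and signal intensities were not used here. In pooled organs, fewer cells of a type and less RNA per cell cannot be told apart. The median over all probes was 0 at every stage. Of the 36 empty spots, 24 to 29 per stage had a ratio of -2.21 or lower, as did 1.52% to 2.26% of the transcript probes, and no ratio of the probes listing *SWEET8* or *SWEET9* lay in that range. *ABAP1* had 0 named probes, so the overexpression could not be checked in these values. Nectary and tapetum could be checked only in part. Of 14 nectary genes, *JMT* was the only one on a named probe, and of 34 tapetum and pollen wall genes, 3 were.

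*SWEET9* had ratios of opposite sign in flower buds and at the later stages. The log2 ratio stood at -1.08 in buds, at 1.36 in open flowers and at 1.11 in siliques. ABAP1OE buds thus had a 2.11-fold lower level than WT buds, while ABAP1OE open flowers were 2.57-fold and ABAP1OE siliques 2.16-fold higher than WT at the same stage. In flower buds, 238 of 5413 genes (4.4%) were at least 2-fold lower, and *SWEET9* was one of them, with 215 genes below it. In open flowers 1.27% and in siliques 1.24% of genes were at least 2-fold higher, and *SWEET9* had 19 genes above it in open flowers and 44 in siliques. The median absolute deviation of the transcript probes was 0.16 in both buds and open flowers but 0.21 in siliques. With every column scaled to that of buds *SWEET9* stood at 0.85 in siliques, or 1.80-fold higher and short of 2-fold, while its ratios in buds and open flowers were as before. The order of its ratios was open flowers, siliques and then buds.

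*SWEET8* was lower in ABAP1OE at every stage, and by nearly the same amount in the deposited ratios of its own probe. The log2 ratio stood at -0.83 in buds, at -0.78 in open flowers and at -0.77 in siliques, which are 1.78-fold, 1.72-fold and 1.70-fold lower levels in ABAP1OE. None of these reached 2-fold, as 4.4% of all genes did on the lower side in buds, 2.81% in open flowers and 2.36% in siliques. The values lay near the lower end of all genes, with 290 genes below *SWEET8* in buds, 206 in open flowers and 196 in siliques.

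**Figure D1:**
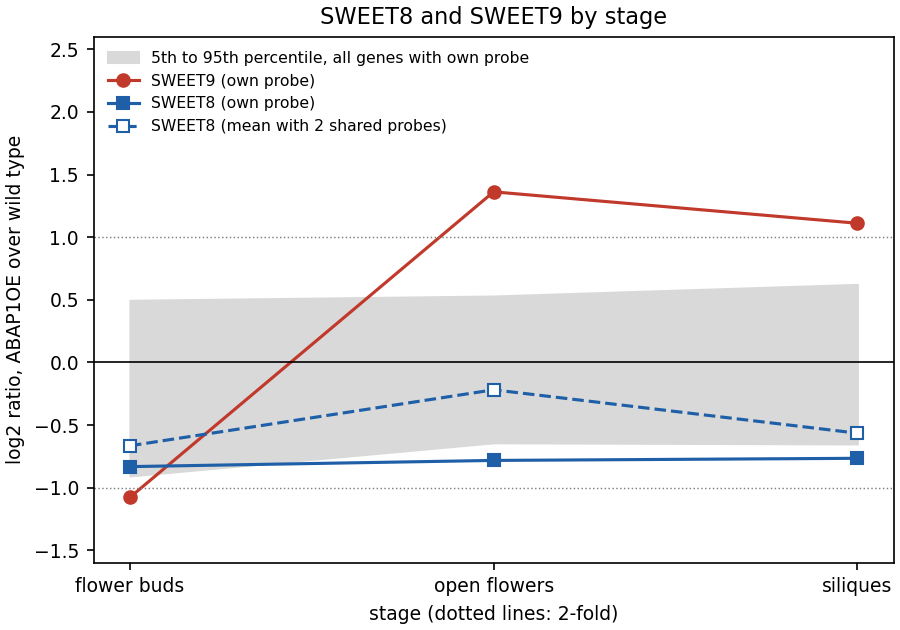
Log2 ratio of ABAP1OE over wild type (vertical axis) at the 3 stages for SWEET9 (red), for SWEET8 by its own probe (blue, filled) and for SWEET8 averaged with the 2 probes it shares (blue, open), with the 5th to 95th percentile of all genes in grey and dotted lines at 2-fold. SWEET9 lies at -1.08 in buds, 1.36 in open flowers and 1.11 in siliques, while the own probe of SWEET8 stays between -0.83 and -0.77.

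The differences between stages set the pair apart from each other. For *SWEET9* the log2 ratio in open flowers minus that in buds was 2.44, a difference that 37 of the 5413 genes exceeded, and that in siliques minus buds was 2.19, which 55 genes exceeded. Siliques minus open flowers came to -0.25. For comparison, the SD between different probes of the same gene was typically 0.18 in buds, 0.17 in open flowers and 0.27 in siliques, so the order of open flowers and siliques rests on a difference about as large as that between probes. With scaled columns this difference was -0.51. For *SWEET8* the 3 ratios spanned 0.07 on the log2 scale, less than the SD between probes at any stage, against a median span of 0.39 over all genes. The span was wider in other settings, at 0.25 with scaled columns, which is above the SD between probes in buds and open flowers, and at 0.45 with shared probes averaged in. By its own probe as deposited, its stages have no order beyond the spread between probes. The SD between probes describes the array and not plants. It came from 48 to 51 genes per stage whose own probes differed, and 228 to 229 genes with identical probe values did not enter. Ratios at or below -2.21, or as far above 0, were left out. This SD compares probes within a stage and not 1 probe between stages, and no test between stages was possible.

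*SWEET9* was selected on these ratios, so the counts given next describe it and do not test it. Below 0 in buds and above 0 in open flowers and siliques were 586 of 5413 genes (10.8%), *SWEET9* included. At least 2-fold lower in buds and at least 2-fold higher in both open flowers and siliques were 2 of 5413 genes (0.0369%), *SWEET9* and *BIN4*, a gene required for endoreduplication. The ratio of *BIN4* in buds was at -6.64, the 100-fold limit of the table, and its ratios were 1.34 in open flowers and 3.18 in siliques. The place of *SWEET9* in this set depended on its silique ratio, and with scaled columns *BIN4* alone was left. In the pair of buds and open flowers alone, 7 genes (0.129%) had such opposite ratios. Of these, 6 had a bud ratio at or below -2.21, the range of most empty spots, and *SWEET9* was the other one. For buds and siliques there were 6 genes (0.111%), of which 4 had a bud ratio above -2.21. These are *SWEET9*, *LEA4-5*, AT1G16950 and AT1G57650. With scaled columns *SWEET9* and *LEA4-5* were no longer in this set. With its shared probe averaged in, AT1G57650 was at -0.68 in buds and 0.82 in siliques and short of 2-fold in both.

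**Figure D2:**
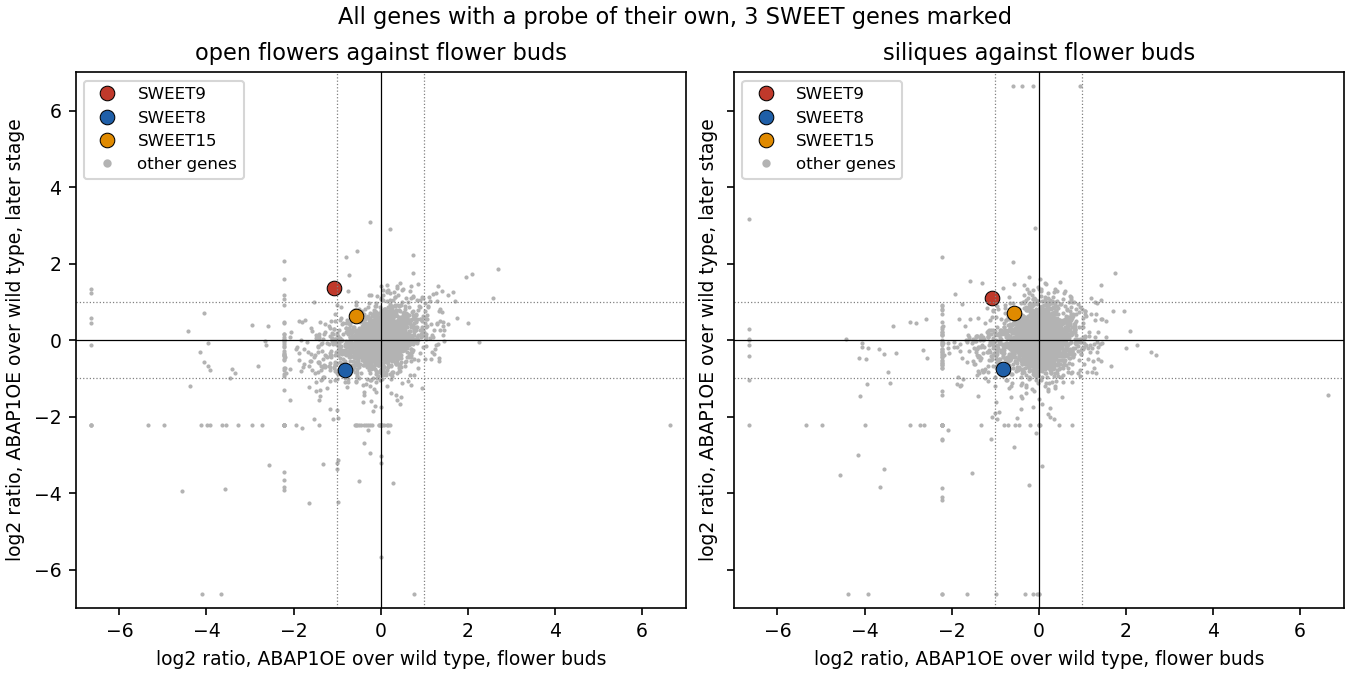
Log2 ratio of ABAP1OE over wild type in open flowers (left) and in siliques (right) on the vertical axis against that in flower buds on the horizontal axis, 1 grey point per gene with a probe of its own, with dotted lines at 2-fold. SWEET9 (red) lies in the upper left corner beyond 2-fold in both panels, SWEET15 (orange) lies in the same quadrant closer to 0, and SWEET8 (blue) lies in the lower left quadrant inside 2-fold.

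For *SWEET8* the counterpart is a set of genes that were lower at every stage. At least 1.5-fold lower at all 3 stages were 68 genes (1.26%), *SWEET8* included. It was no longer in this set with shared probes averaged in, at -0.22 in open flowers and -0.57 in siliques, nor with scaled columns, where its silique ratio of -0.58 was just short of 1.5-fold. In 48 of them at least 1 ratio was at or below -2.21. A span no wider than the 0.07 of *SWEET8* was found in 14 of the 68 genes, *SWEET8* included. Among the other 20 it was the only one, by a limit that is its own value.

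The value of *SWEET8* depended on the probe. Besides its own probe it is listed on 2 probes together with other members of clade II. The probe shared with *SWEET4* and *SWEET5* had a log2 ratio of -1.43 in buds, 0.08 in open flowers and -0.10 in siliques. *SWEET5*, also known as *VEX1*, is active in the vegetative cell of pollen. The probe shared with *SWEET6* and *SWEET7* had 0.26, 0.04 and -0.83 in the same order of stages. The 3 probes thus gave the same sign in siliques and different signs in buds and in open flowers, and which transcript the shared probes detected was not tested. With the shared probes averaged in, *SWEET8* was at -0.67 in buds, -0.22 in open flowers and -0.57 in siliques. *SWEET9* is on no shared probe, and its values rest on a single probe.

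Of the 17 SWEET genes, 15 were on a named probe and 5 had a probe of their own. *SWEET11* and *SWEET12*, the exporters of phloem loading, had 0 named probes each. Among the 5, 1 was at least 2-fold lower in buds and 1 at least 2-fold higher in open flowers and in siliques, in each case *SWEET9*, while 0 were at least 2-fold higher in buds, where 1.11% of all genes were. The median of the 5 genes was -0.57 in buds, -0.03 in open flowers and -0.36 in siliques, against 0.01, -0.01 and -0.01 over all genes. *SWEET8* and *SWEET9*, which were selected on these ratios, are among the 5, and the median of the other 3, *SWEET2*, *SWEET10* and *SWEET15*, was 0 in buds, -0.03 in open flowers and -0.36 in siliques.

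The other clade III probes had mostly the same sequence of signs as *SWEET9*, at smaller sizes. *SWEET15*, also named *SAG29* from its activity in senescing leaves and a sucrose exporter of the seed, had -0.57 in buds, 0.62 in open flowers and 0.70 in siliques. The probe of *SWEET13* and *SWEET14*, sucrose carriers that also act in anthers, had -0.38, 0.43 and 0.28 in the same order. A further probe, which lists *SWEET10* as well as these, had -0.39, 0.40 and 0.67. The exception was the own probe of *SWEET10*, a gene induced in the shoot apex at flowering, which had 0, -0.04 and -0.36. Thus 4 of 5 clade III probes, or 3 of 4 without *SWEET9*, were below 0 in buds and above 0 in open flowers and siliques, as were 586 of all 5413 genes (10.8%). The median of the 4 other clade III probes was -0.38 in buds, 0.42 in open flowers and 0.47 in siliques. The probes of *SWEET13* and *SWEET14* share their targets and are not independent. The clades were set side by side after these values were seen, and cross-hybridisation between members was not tested.

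Outside clade III this sequence of signs was found on 1 of the 10 other SWEET probes, the one that lists *SWEET1*, *SWEET2* and *SWEET3* together, with -0.16 in buds and 0.44 at both later stages. *SWEET2*, a glucose carrier of the vacuolar membrane, had 0.18, -0.03 and -0.41 on its own probe, opposite in sign at every stage. In clade II, ratios in buds ranged from -3.82 to 0.26. The lowest was that of the probe of *SWEET6* and *SWEET7*, which is in the range of most empty spots and which had -0.32 in open flowers and -0.56 in siliques. Clade IV, *SWEET16* and *SWEET17* on 2 shared probes, stayed between -0.28 and 0.14.

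**Figure D3:**
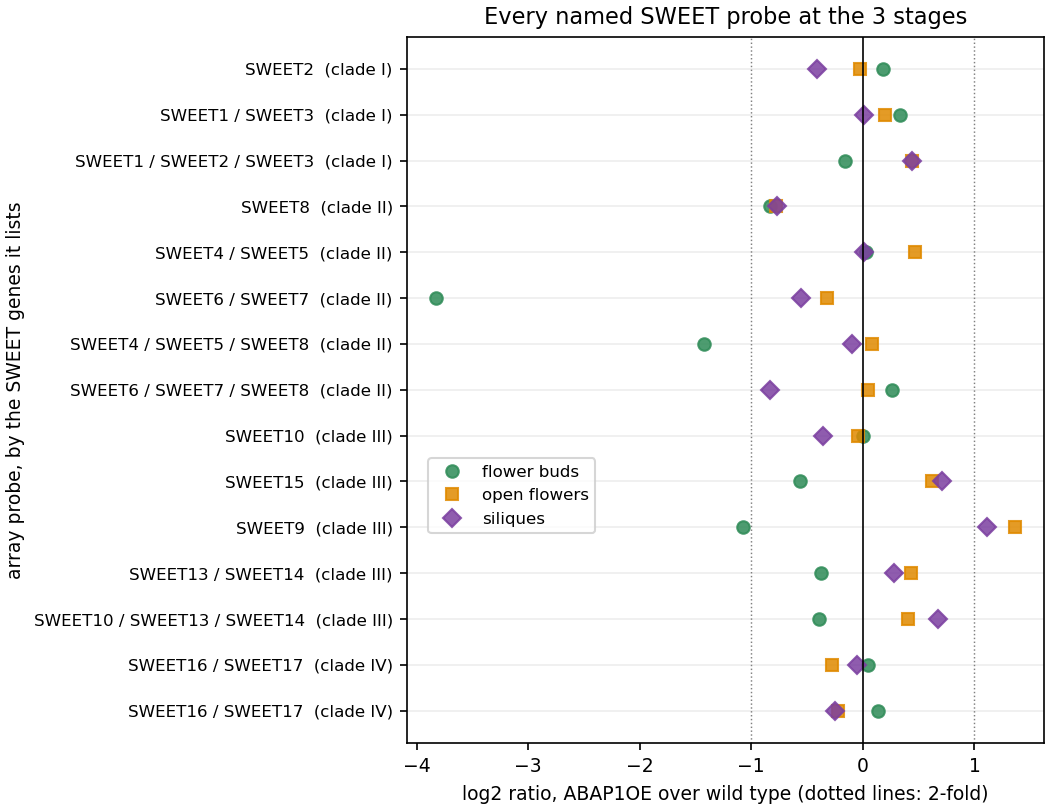
Log2 ratio of ABAP1OE over wild type (horizontal axis) for each of the 15 named SWEET probes (rows, with the genes listed on the probe and their clade) in flower buds (green circles), open flowers (orange squares) and siliques (purple diamonds), with dotted lines at 2-fold. The bud values of 4 of the 5 clade III probes lie below 0 and their later values above 0, and the 3 values of the SWEET8 probe lie on top of each other near -0.8.

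Few other genes of sugar handling had a value. Of 23 genes of sucrose and hexose uptake, 2 were on a named probe. *STP3*, a hexose and proton symporter, had -0.25 in buds, 0.50 in open flowers and -0.04 in siliques on its own probe. The probe it shares with *STP5* had 0.14, -0.60 and -0.51. Of 20 genes of sucrose synthesis and cleavage, 3 were on a named probe. *SPS4F*, one of the sucrose phosphate synthases, had -0.28 in buds, 0.19 in open flowers and 0.30 in siliques. *SPP2*, which encodes a sucrose phosphate phosphatase, had -0.18, 0.04 and 0.33 on a probe shared with other genes. Both had the same sequence of signs as *SWEET9*, as had 10.8% of all 5413 genes, and both stayed under 1.5-fold. Nothing is read from this shared sequence. *CWINV6*, of the cell wall invertase family, had 2 probes of its own that differed, one with 0.51, -0.07 and 0.03 and the other with 0.15, 0.34 and 0.58. No gene of these lists was 2-fold apart from WT at any stage. Over all genes, 1.11% to 4.4% were so per stage and direction, and with so few genes nothing is read from this count.

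Nectary and tapetum were represented by few genes, and none of these was 2-fold apart from WT at any stage. Set against the same 1.11% to 4.4% of all genes, this count likewise says nothing about either tissue. *JMT*, a jasmonate methyltransferase whose relative in *Brassica* is known from nectaries, had -0.03 in buds, 0.01 in open flowers and 0.07 in siliques on its own probes, where *SWEET9* stood at -1.08, 1.36 and 1.11. *JMT* shares a further probe with 3 other genes, which had -0.20, -0.18 and 0.77. *EMS1*, the receptor kinase that sets tapetal fate, had 0.04, -0.28 and -0.41. *BGLU20*, a beta-glucosidase of the anther also named *ATA27*, had -0.21, 0.03 and -0.12, where *SWEET8* stood at -0.83, -0.78 and -0.77. *A9*, a gene of the tapetum, was on 2 shared probes only, with -0.12 and -0.26 in buds, 0.16 and 0.44 in open flowers, and -0.52 and 0.20 in siliques. *CRC*, the regulator of nectary formation, and *AMS* and *MS1*, regulators of the tapetum, were not analysed here, and the part that the amount of either tissue has in the ratios of *SWEET8* and *SWEET9* was not tested.

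The genes most like each member were found by the distance between their 3 log2 ratios (Euclidean, over the 3 stages) among the 5413 genes. Nearest to *SWEET9* was *AGL77*, a MADS-box gene, at a distance of 0.68, with -0.76 in buds, 1.28 in open flowers and 0.52 in siliques. AT2G19630 followed at 0.71, but with its shared probe averaged in its ratios were -0.49, 0.40 and 0.57 in place of -0.58, 1.01 and 1.48. The others were AT1G67540 at 0.75, AT5G57340 at 0.76 and AT1G36030 at 0.88. All 5 were below 0 in buds and above 0 at both later stages, as any gene this near to *SWEET9* must be. *SWEET15* was at 0.99, with 8 genes nearer, whereas *SWEET8* was at 2.86 with 5125 genes nearer.

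The nearest genes to *SWEET8* lay closer. AT2G47120 was at a distance of 0.17, with -0.83 in buds, -0.67 in open flowers and -0.63 in siliques. AT3G49540 was at 0.20, with -0.98, -0.90 and -0.69. *GH9B11*, of the glycosyl hydrolase family that holds the plant endoglucanases, was at 0.27 with -0.82, -0.99 and -0.93. AT2G28920 at 0.32 and AT3G55780 at 0.32 complete the 5. *GH9B11*, AT2G28920 and AT3G55780 each also share a probe with another gene, and with it averaged in they were at -0.38, -0.52 and -0.46 in buds. A distance over 3 values is a description of likeness on these arrays.

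**Figure D4:**
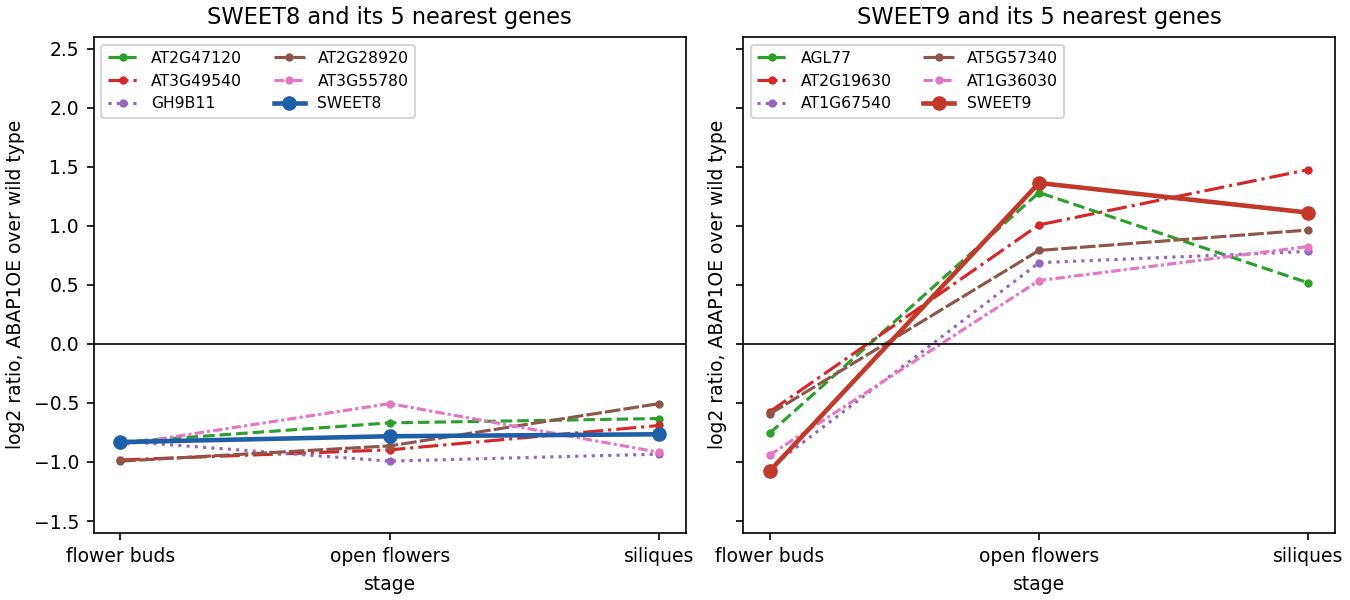
Log2 ratio of ABAP1OE over wild type (vertical axis) at the 3 stages for SWEET8 (left, blue) and SWEET9 (right, red), each with the 5 genes nearest to it over the 3 ratios. The genes near SWEET8 stay between -1 and -0.5 at every stage, and those near SWEET9 are all below 0 in buds and above 0.5 in open flowers and siliques. All were picked by this likeness.

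Genes beside *SWEET9* on its chromosome had ratios closer to 0. Of the 3 protein-coding genes on each side of it, 3 had a probe of their own. AT2G39040 had 0.45 in buds, 0.06 in open flowers and -0.18 in siliques. *EULS3*, which encodes a lectin, had -0.03, 0.12 and 0.04. AT2G39100 had -0.20, -0.04 and 0.06. None of the 6 genes beside *SWEET8* had a probe of its own.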

How the data were processed

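The deposited values were log2 ratios of ABAP1OE over WT, 1 column per stage, in which the authors had combined 3 biological replicates on arrays of the Operon Arabidopsis Genome Oligo Set. How background was corrected and how arrays were normalized and averaged is not given in the sources used here. The table held 26545 probes, with ratios limited to 100-fold. The sign of the bud column was the same as in the study's own gene list for all 46 genes that could be compared, and the other columns were taken by their labels to run the same way. Across genes, columns correlated with a Pearson r of 0.24 to 0.39.

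Probes with 1 gene symbol in the platform annotation (5784, of which 5756 matched the TAIR10.1 RefSeq gene table) were averaged per gene, which gave 5415 genes, 5413 of them with a value at every stage. Another 7497 probes listed several genes and 13264 none, and the latter are unnamed here. With 1 value per stage no test was made, and no SD across plants exists. Depth is unknown. Named genes were both members, list genes with a named probe, and the 5 nearest genes to each member over the 3 stages. Members and lists were chosen with earlier results of these data known. Alternatives were shared probes, centring, scaling, the probe farthest from 0, sizes of 1.5-fold and 3-fold, and means; leaving out values in the range of empty spots was chosen after seeing the data. Counting and distances were tested on simulated data. Python 3.11.15, numpy 2.4.6, pandas 2.3.3 and matplotlib 3.10.9 were used.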

Additional observations from a re-analysis of the deposited data

Results flagged for a closer look

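*SWEET9* was at least 2-fold apart from WT in opposite directions at different stages. Its log2 ratio in open flowers minus that in flower buds was 2.44, and in siliques minus flower buds 2.19. With columns scaled to the spread of flower buds its silique ratio was 0.85, short of 2-fold. Each stage is 1 combined ratio from 1 probe, so the difference between stages was not tested.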

How the results depend on the processing

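Recomputing gave 123 values. Of these, 54 were the same number as before, in many cases because the setting could not move them, 32 stayed close (counts within 1.5 times, other values within the SD between probes of a gene) and 37 moved. Among those that moved are counts at a changed size, and counts and medians over a larger set of genes. The number that moved is therefore no measure of how stable the ratios of a gene are. For *SWEET9* only giving all columns the median absolute deviation of buds changed a value, to 0.85 in siliques. That counts as close, but it ended the 2-fold call of *SWEET9* there. The differences, also close, were 1.93 for siliques minus buds and -0.51 for siliques minus open flowers. Shared probes and the probe farthest from 0 could not change *SWEET9*, since it has 1 probe. For *SWEET8* scaling gave -0.58 in siliques and a silique minus bud difference of 0.25, and both scaling and shared probes took it out of the genes at least 1.5-fold lower at all 3 stages. With shared probes averaged in, *SWEET8* was at -0.22 in open flowers, its open flower minus bud difference was 0.45 and its silique minus open flower difference -0.35. The cause was not tested beyond the probes added. No paired analysis was possible because the replicates of a stage come as 1 ratio and nothing here was tested. Intensities were not used, so how far signals stood above background is unknown.

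Averaging in shared probes gave the SWEET list a median of -0.38 in buds, 0.27 in open flowers and 0.016 in siliques. The median of the uptake carriers was then 0.040, -0.33 and -0.39, and that of sucrose synthesis and cleavage -0.18 in buds. The genes behind these medians also changed, from 5 to 15 in the SWEET list, from 1 to 2 uptake carriers and from 2 to 3 of sucrose synthesis and cleavage. A shared probe enters once for each listed gene. Also leaving out values in the range of most empty spots, which was chosen after seeing the data, gave -0.19, 0.27 and 0.016 for the SWEET list, 0.040, -0.33 and -0.39 for the uptake carriers and -0.18 in buds for sucrose synthesis and cleavage. The mean of the SWEET list was 0.23 in open flowers and 0.057 in siliques. Over all genes, 238, 152 and 128 were at least 2-fold lower in buds, open flowers and siliques, and 60, 69 and 67 higher. With a size of 1.5-fold the lower genes numbered 417, 302 and 335 and the higher ones 213, 226 and 309. With 3-fold, the lower genes were 137 (buds) and 82 (siliques) and the higher ones 10, 12 and 11. With shared probes averaged in, 648, 465 and 340 were lower and 105 were higher in siliques. These counts are over 13976 genes in buds and 13977 at each later stage, in place of 5413. Their larger size therefore does not mean a larger share of genes. Without values in the range of most empty spots, 127, 54 and 55 were lower.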
